A study of Mus musculus with 6 samples.

Results

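The genes of DNA replication and S-phase repair form a set of 50 genes, out of 21881 entries in each of 2 deposited tables. They were chosen by name and not by their values, though with earlier results of these data known. All 50 were found in both tables, and 48 were tested by the authors with CBD and 50 with 4-OHT. They were split by role into 14 genes of origin licensing and firing, 18 of polymerases, clamp and fork enzymes, 5 of nucleotide supply, 4 of chromatin assembly and 9 of fork protection and repair. The cells are mouse leukemia cells of strain C57/B6X129SV that depend on AE9a, a shortened AML1-ETO fusion oncoprotein. In every group the Id1 alleles are flanked by loxP sites and the cells express CreER, a Cre recombinase activated by tamoxifen metabolites. The 6 RNA-seq samples fall into 3 groups of 2: control, CBD (15 µM for 16 h) and 4-hydroxytamoxifen (4-OHT, 0.1 µM for 48 h). CBD is named in the design as an inhibitor of Id1 and is not spelled out there. The labels name no vehicle for the controls and do not say whether samples of a group were separate cultures, so the authors' p-values may measure technical spread alone. They describe 1 of the 2 control samples with each comparison, so each control column may hold a different single library.

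Each table gives 1 FPKM value per group (fragments scaled to transcript length and sequencing depth), so every member has 4 values: control and CBD in the CBD table, control and 4-OHT in the 4-OHT table. No SD, n or read depth can be set beside an FPKM value. "Fell" and "rose" mean that the authors' deposited table, made with Cuffdiff, gives a q under 0.05. Folds are on the log2(FPKM + 0.1) scale, treated over control, which understates the change of low genes. The tables were normalised separately, so a value set against the other table's control is a description and was not tested. In these bulk samples, fewer cells holding a transcript and less of it per cell cannot be told apart.

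DNA is copied once per cell cycle. In G1 phase, Cdc6 and Cdt1 load the ring-shaped Mcm2 to Mcm7 helicase onto origins. In S phase, Mcm10 and the GINS complex help to switch the helicase on, and the polymerases follow it. The clamp Pcna tethers them to DNA, the Rfc clamp loader opens and closes that clamp, and histone chaperones rebuild chromatin behind the fork. Many of these genes are driven by E2F transcription factors as cells pass from G1 into S phase, so their mRNA levels are widely used to follow proliferation.

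RefSeq promoters (build GRCm38.p6, from 250 bases before to 50 after a transcript's start) were at hand for 40 of the 50 members. The words TTTGGCGC, TTTCCCGC, TTTGCCGC and TTTCGCGC, forms of the E2F recognition sequence, were searched on both strands. At least 1 of them was found in 15 of the 40 genes (37.5%), against 2.6% of 27025 genes with a promoter and 5.95% of 4403 well-expressed genes, meaning those with at least 10 FPKM in each control column. Mcm6 held 3, and Mcm3, Mcm5, Mcm7 and Rfc3 held 2 each. With the shorter words TTGGCGC and TTCCCGC, which lie within TTTGGCGC and TTTCCCGC, the count was 22 of 40 (55%), against 16.7% of the 4403 genes. The word CCAAT, which is not a form of the E2F sequence, was found in 24 of 40 (60%), against 43.6% of the 4403. Members with no promoter entry were Mcm4, Gmnn, Gins1, Gins2, Gins4, Pole, Prim2, Rfc2, Tipin and Exo1. A match is a description of the letters and does not show that a factor binds there. The promoters below are those of the pair of members with the lowest CBD folds among the well-expressed ones that hold a word, and of the most abundant member, Pcna, which holds none. Each runs 5′ to 3′ on the gene's strand, and capitals mark the word, which in Clspn is the reverse complement of TTTCGCGC.
Clspn, chr4:126556730-126557029, plus strand: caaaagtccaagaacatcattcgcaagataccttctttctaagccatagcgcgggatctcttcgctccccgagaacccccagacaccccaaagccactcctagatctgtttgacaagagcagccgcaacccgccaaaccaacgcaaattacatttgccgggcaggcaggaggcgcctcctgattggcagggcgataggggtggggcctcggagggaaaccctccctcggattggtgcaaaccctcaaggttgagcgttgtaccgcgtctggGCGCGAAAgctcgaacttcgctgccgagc
Cdt1, chr8:122567765-122568064, plus strand: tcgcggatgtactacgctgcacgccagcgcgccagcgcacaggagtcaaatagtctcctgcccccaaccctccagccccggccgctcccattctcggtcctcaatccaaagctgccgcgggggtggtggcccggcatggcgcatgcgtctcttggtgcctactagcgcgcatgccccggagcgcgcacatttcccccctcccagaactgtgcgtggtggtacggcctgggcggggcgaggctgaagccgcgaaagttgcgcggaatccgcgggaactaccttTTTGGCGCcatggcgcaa
Pcna, chr2:132253131-132253430, minus strand: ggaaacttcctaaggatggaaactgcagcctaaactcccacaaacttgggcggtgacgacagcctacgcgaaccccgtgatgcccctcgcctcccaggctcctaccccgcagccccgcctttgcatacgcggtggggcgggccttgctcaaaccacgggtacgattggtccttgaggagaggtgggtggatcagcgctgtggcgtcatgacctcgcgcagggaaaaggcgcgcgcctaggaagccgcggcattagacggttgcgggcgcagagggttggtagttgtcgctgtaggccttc
In Clspn and Cdt1 the word lies within the 50 bases after the start. Among members tested with CBD, the 15 with a word had a median log2 fold of −1.36 and the 24 without one −0.86. Once the transcript length trend described further on was removed, these medians were −1.24 and −0.91. Some of the members without one of these words hold a shorter word, Rfc1 and Chaf1a among them. The difference was not tested, and the same split was not made over all genes.

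The targeted gene Id1 had 15.4 FPKM without and 0.741 with 4-OHT, and 34.2 without and 11.95 with CBD (q = 0.133 in the authors' deposited table). The pan-leukocyte gene Ptprc and the myeloid genes Mpo, Itgam and Cd33 were under 1 FPKM in all 4 columns, while Kit and Myb stood at 65.5 FPKM or more. Markers of brain cells moved with the CBD group. The summed FPKM of 11 neuron markers was 21.2 in the control and 208 with CBD, and 9.78 and 9.33 in the control and treated columns of the 4-OHT table. All 11 reached 1 FPKM with CBD, against 1 in each of the other 3 columns, and 10 of them rose. For 8 oligodendrocyte markers the sums were 49.0 and 235, with 6 rising; for 8 astrocyte markers 94.1 and 247, with 8 rising; and for 8 microglia markers 32.2 and 59.5, with 3 rising. At 0 in the CBD control were 2, 2, 0 and 3 markers of these lists, and none was at 0 with CBD. The summed FPKM of 6 mast cell and basophil markers went from 706 to 1473 with CBD, with 3 rising and 1 falling, and from 524 to 431 with 4-OHT, with 3 rising and 3 falling. Among them Cpa3, a mast cell protease gene, rose from 71.9 to 658 FPKM with CBD and fell from 148 to 48.2 with 4-OHT. For 5 lymphoid markers the sums were 24.6 and 93.7 with CBD, and 13.6 and 19.6 with 4-OHT. The one above 1 FPKM was Nkg7, a gene of cytotoxic granules, which rose in both tables, whereas the T cell gene Cd3e was listed at 0 in all 4 columns. The part of these markers in the results below was not tested.

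With CBD, genes of every step of replication were lower. Of the 48 tested members 31 fell and none rose (18.4% of all tested genes rose), and 47 had a log2 fold below 0. At an unadjusted p under 0.05 by the authors' Cuffdiff test, 41 were lower and 0 higher. What part of all tested genes passes that unadjusted threshold was not computed, here or for the counts below. The share that fell, 64.6%, compares with 7.74% of all 13751 tested genes and with 14.9% of the 5922 well-expressed tested genes. The members' median log2 fold was −1.02, beside 0.29 over all tested genes and 0.01 over those 5922. The median member level went from 53.6 FPKM in the control to 28.3 with CBD, and the summed FPKM of all 50 went from 3832 to 2053.

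**Figure D1:**
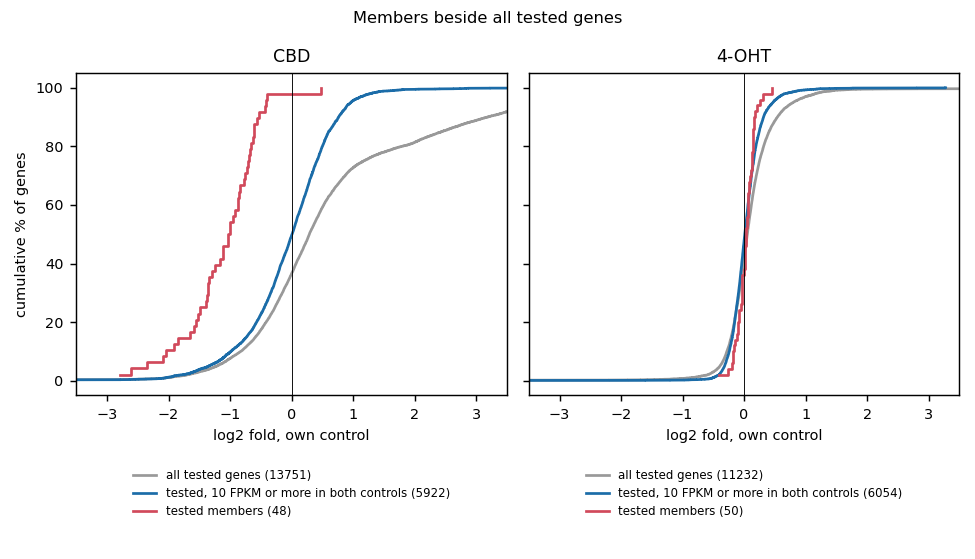
Cumulative share of genes (vertical, percent) by log2 fold against the own control (horizontal), with CBD on the left and 4-OHT on the right, for all tested genes, well-expressed tested genes and tested members. With CBD the members' curve lies left of the others, with a median of −1.02, and with 4-OHT it rises steeply around a median of 0.04; folds beyond 3.5 in either direction are outside the plotted range.

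Of the 25 tested members that changed at least 2-fold with CBD 23 fell, and Rfc3 and Gins1 had no call. Of the 23 with smaller folds 8 fell. Pola2, an accessory subunit of polymerase alpha, had the smallest fold among the members that fell, −0.63 (q = 0.000250 in the authors' deposited table). Rfc3, a clamp loader subunit, went from 46.0 to 20.6 FPKM, a log2 fold of −1.16, and did not pass (q = 0.0585 in the authors' deposited table). The members without a call are not shown to be unaffected.

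The helicase genes moved as a block. Mcm2 to Mcm7 fell in 6 of 6 cases, against 7.74% of all tested genes. Their log2 folds lay between −1.39 (Mcm3) and −0.999 (Mcm5). Mcm3 stood at 212 FPKM in the control and 80.8 with CBD, and at 227 and 247 in the control and treated columns of the 4-OHT table. Mcm5 stood at 141 and 70.5 FPKM with CBD, and at 168 and 157 in the 4-OHT table. The lowest of the 6 in each column was Mcm4, at 75.9, 31.8, 105.2 and 103.3 FPKM. Mcm3 kept 38.1% of its control level, the least of the 6, against a median of 41.3%, and the highest of the 6 was 2.79 times the lowest in the control and 2.55 times with CBD. The CBD value lay below the other 3 columns for every gene of the hexamer.

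Of the remaining licensing and firing genes, Cdt1 had the lowest fold. Cdt1 stood at 100.3 FPKM in the control and 27.8 with CBD, and at 58.4 and 60.3 in the 4-OHT table (log2 fold with CBD −1.84; the authors' deposited table gives q = 2.04e-08). The CBD value is the lowest of the 4, although the control columns differ from each other by a log2 ratio of −0.78, the most negative of any member. Cdc6, the ATPase that works with Cdt1, went from 23.1 to 8.21 FPKM, and Mcm10 from 26.5 to 8.40. Geminin (Gmnn), which binds Cdt1 and blocks a further round of loading, did not pass the test: control and CBD hold 56.5 and 39.2 FPKM, and control and 4-OHT hold 102.0 and 113.

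None of the GINS genes passed with CBD. Gins1 went from 41.8 to 20.7 FPKM (the authors' deposited table gives q = 0.0515), and Gins3 from 8.58 to 4.77. Gins4 stood at 50.7 and 38.4 FPKM, and its CBD value lies between the control columns, since the 4-OHT table's control holds 36.1. Gins2, listed at 31.4 and 18.4 FPKM, has a failed test in the authors' deposited table. In the licensing group as a whole 9 of 13 tested genes fell (69.2%, against 7.74% of all tested genes). At an unadjusted p under 0.05, 10 were lower, and the median log2 fold was −1.25.

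Polymerase, clamp and fork enzyme genes were more uneven. Of 18 tested genes 9 fell (50%, against 7.74% of all tested genes) and none rose (18.4% of all tested genes). At an unadjusted p under 0.05, 14 were lower and 0 higher, and the median log2 fold was −0.81. Pole, the catalytic subunit of polymerase epsilon, stood at 29.5 FPKM in the control and 5.72 with CBD, and at 32.9 and 30.2 in the 4-OHT table. It kept 19.3% of its control level, the least in this group. Its partner Pole2 stood at 21.8 and 12.8 FPKM and did not pass (q = 0.266 in the authors' deposited table). The catalytic subunit of polymerase alpha, Pola1, fell from 32.1 to 10.9 FPKM. Both primase genes, which make the RNA primers, were without a call: Prim1 stood at 38.0 and 20.6 FPKM, Prim2 at 34.8 and 20.2. Polymerase delta genes Pold1 and Pold2 fell from 58.7 to 28.6 and from 93.7 to 52.0 FPKM.

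Clamp and clamp loader genes ranged widely. Pcna, the most abundant member in each column, stood at 509 FPKM in the control and 347 with CBD, and at 446 and 504 in the 4-OHT table (q with CBD 0.110 in the authors' deposited table). Rfc1, the large subunit of the clamp loader, fell from 32.1 to 8.44 FPKM and Rfc4 from 86.3 to 42.1. Rfc5, at 64.8 and 39.5 FPKM, did not pass. Rfc2 was the one member with a higher value: it stood at 121 FPKM in the control and 168 with CBD, and at 134 and 133 in the 4-OHT table, with a log2 fold of 0.47 (authors' deposited table: q = 0.151). Its CBD value is the highest of the 4. Rfc2 lies on chromosome 5 from 135058560 to 135074198 in mm9, the build of the tables, by their locus entry.

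At the lagging strand, DNA ligase 1 (Lig1) fell from 67.1 to 23.3 FPKM, whereas Fen1, the nuclease that trims the flaps before ligation, stood at 60.9 and 45.7 FPKM (q = 0.245 in the authors' deposited table). Of the single-strand binding protein genes, Rpa2 fell from 66.8 to 40.5 FPKM (the authors' deposited table gives q = 0.0472), and Rpa1 stood at 121 and 89.3 FPKM with no call.

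**Figure D2:**
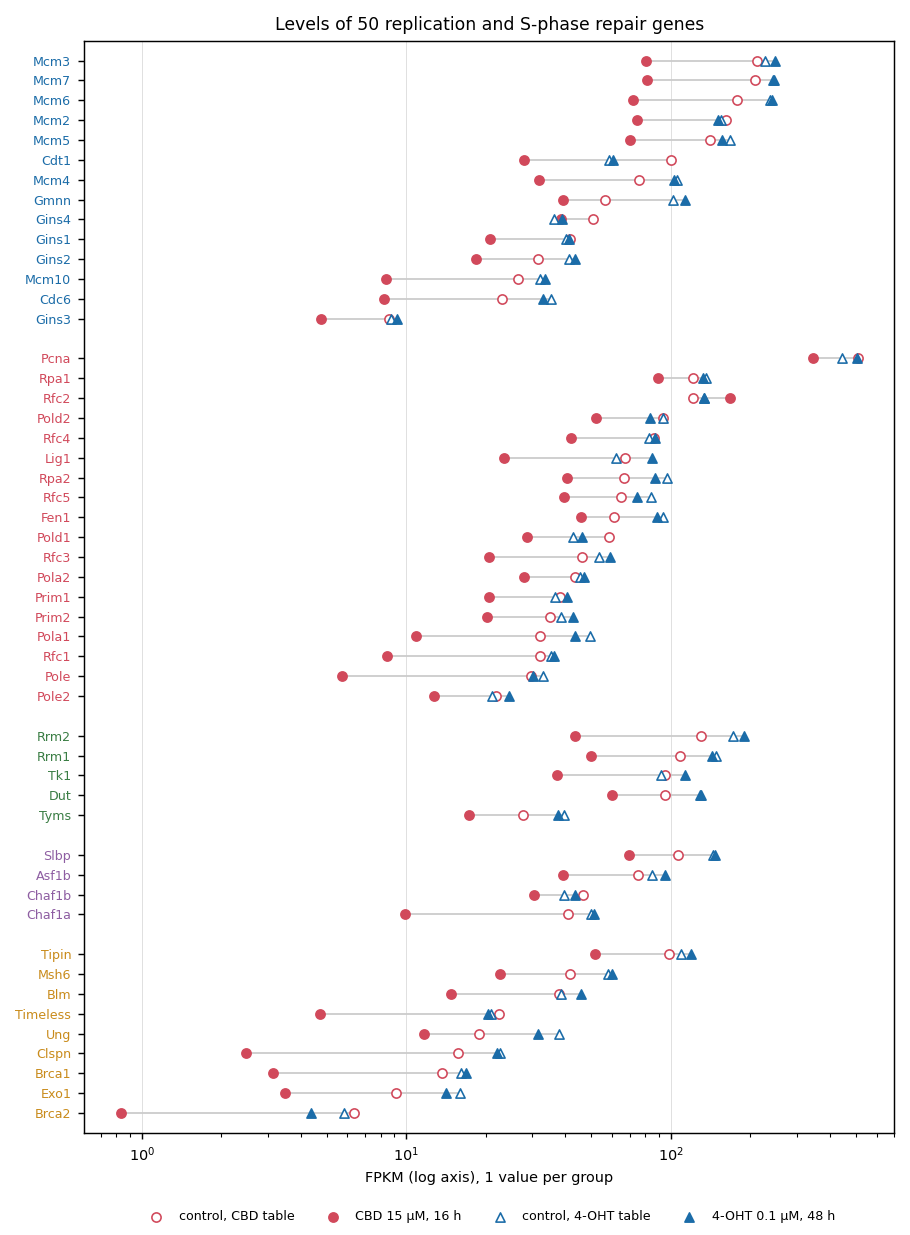
FPKM (horizontal, log axis) of the 50 members in the 4 deposited columns, 1 value per group, in 5 blocks from top to bottom: licensing and firing, polymerases and fork enzymes, nucleotide supply, chromatin assembly, fork protection and repair. Red filled circles (CBD) lie left of the other symbols for 48 members, with Gins4 between the controls and Rfc2 to the right; the 4-OHT triangles lie close to their open control triangles.

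Nucleotide supply genes fell in 4 of 5 cases (80%), against 7.74% of all tested genes. None rose, against 18.4% of all tested genes, and the median log2 fold was −1.11. All 5 were lower at an unadjusted p under 0.05. Rrm2, the small subunit of ribonucleotide reductase that carries its radical, stood at 130 FPKM in the control and 43.4 with CBD, and at 172 and 189 in the 4-OHT table. Rrm1, the large subunit, fell from 108 to 50.1 FPKM. Thymidine kinase (Tk1) fell from 95.4 to 37.1 FPKM and the dUTPase gene Dut from 94.9 to 60.2. Thymidylate synthase (Tyms), at 27.6 and 17.2 FPKM, missed the threshold (q = 0.0542 in the authors' deposited table). The CBD value of each of the 5 genes is the lowest of its 4 values.

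In chromatin assembly, 2 of 4 genes fell (50%, against 7.74% of all tested genes) and none rose (18.4% of all tested genes). At an unadjusted p under 0.05, 4 were lower, and the median log2 fold was −0.78. Chaf1a, the large subunit of the CAF-1 histone chaperone, stood at 40.9 FPKM in the control and 9.86 with CBD, and at 49.96 and 51.2 in the 4-OHT table. Chaf1b, its partner, went from 46.5 to 30.5 FPKM with no call (q = 0.139 in the authors' deposited table). Asf1b, which hands histones to CAF-1, fell from 75.1 to 39.0 FPKM. Slbp, the stem-loop binding protein of replication-dependent histone mRNAs, stood at 106 and 69.5 FPKM (q = 0.0646 in the authors' deposited table).

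Fork protection and repair genes had the lowest median fold of the 5 roles, and the longest transcripts, at a median of 4770 bp. With the length trend described further on removed, the order turned: their median log2 fold was −1.12 and that of licensing genes −1.16. Of 8 tested genes 7 fell (87.5%, against 7.74% of all tested genes) and none rose (18.4% of all tested genes). At an unadjusted p under 0.05, 8 were lower, and the median log2 fold was −1.36. Brca2, which acts in homologous recombination, stood at 6.35 FPKM in the control and 0.834 with CBD, and at 5.84 and 4.39 in the 4-OHT table. It kept 13.1% of its control level, the least of any tested member. By the locus entries of the tables, Brca2 lies on chromosome 5 from 151325198 to 151372324 in mm9, and Clspn on chromosome 4 from 126234224 to 126271147. Claspin (Clspn), an adaptor of the checkpoint kinase Chek1 at stalled forks, stood at 15.7 and 2.49 FPKM with CBD and at 22.5 and 22.0 in the 4-OHT table. Its log2 fold was −2.61 (q = 0.000408 in the authors' deposited table). Brca1 fell from 13.7 to 3.14 FPKM. Brca1, Brca2 and Clspn were below the median member level in the CBD control, 53.6 FPKM.

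Of the rest of this group, the RecQ helicase gene Blm fell from 37.7 to 14.8 FPKM, the exonuclease gene Exo1 from 9.17 to 3.47, the mismatch recognition gene Msh6 from 41.7 to 22.7, and Tipin, a fork protection protein, from 98.8 to 52.0. Timeless, the partner of Tipin, is listed at 22.5 FPKM in the control and 4.72 with CBD, but its test failed in the authors' deposited table and no call exists. The uracil glycosylase gene Ung went from 18.8 to 11.7 FPKM with CBD and did not pass (q = 0.110 in the authors' deposited table). The 4-OHT table's control column holds 38.0 FPKM of Ung, the largest gap between the control columns of any member, at a log2 ratio of 1.01.

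Transcript length moved with the CBD folds. Over 5874 well-expressed tested genes with a known length, the fold declined with the length of the longest annotated transcript (Spearman rho of −0.42; the points are genes, not replicates, and share the same libraries). The median log2 fold was 0.54 in the bin of shortest transcripts and −0.74 in that of the longest. Among the 48 tested members, whose longest transcripts span 1087 to 10724 bp, rho was −0.52. Members that fell had a median length of 3496 bp and the others 2726 bp. With the trend over the 5874 genes subtracted, rho among members was −0.14, the median member log2 fold was −1.06, and 47 of 48 stayed below 0. With 4-OHT, rho was −0.05 over 6006 well-expressed tested genes and −0.46 among the 50 members. With the 4-OHT trend subtracted, rho among members was −0.41. The part of length in single folds was not tested further, and where a shorter transcript prevails the adjustment rests on the wrong length.

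**Figure D3:**
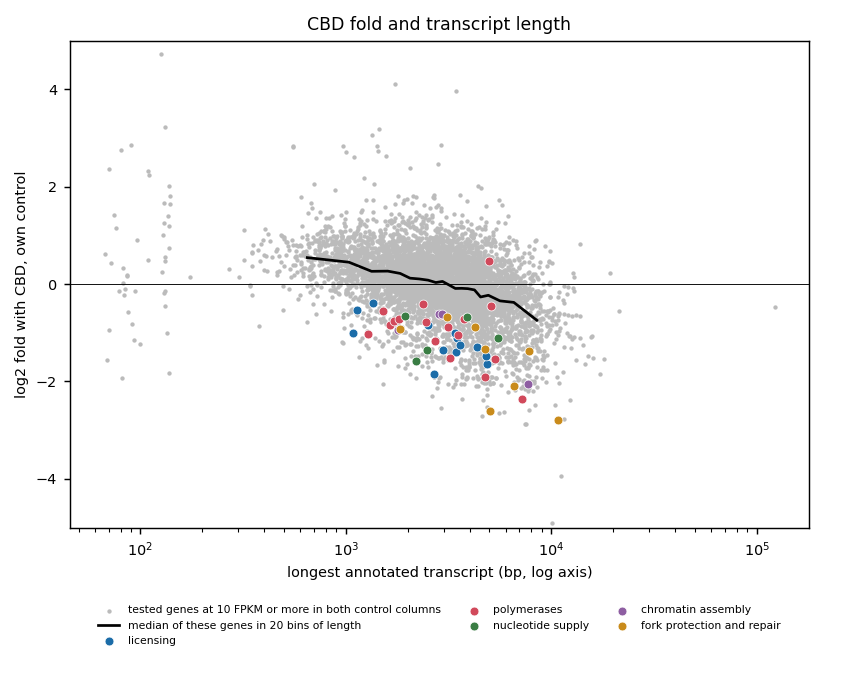
Log2 fold with CBD against the own control (vertical) by longest annotated transcript (horizontal, bp, log axis) for 5874 tested genes in grey, their median in 20 bins of length as a line, and the tested members coloured by role. All members but Rfc2 have a fold below 0, and 15 grey genes lie beyond 5 in either direction, outside the plotted range.

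In several complexes the subunits' CBD folds lay apart, before and after the length adjustment. Pole was lower than Pole2 by a log2 fold difference of −1.59, and by −0.84 with the length trend removed (7163 and 1706 bp). For Chaf1a and Chaf1b the difference was −1.44 and then −0.79, and for Pola1 and Pola2 −0.91 and then −0.57. Rfc1 differed from the median of the 4 small clamp loader genes by −1.04, then −0.76. Pold1 and Pold2 differed by −0.19, and by 0.16 once the trend was removed, so their order turned. Ribonucleotide reductase went the other way: Rrm1, with the longer transcript, had a log2 fold 0.47 above that of Rrm2, and 0.90 above it with the trend removed. Rpa1 was 0.28 above Rpa2, then 0.76. The primase genes Prim2 and Prim1 lay close together, at a difference of 0.10, then 0.0085. None of these differences between genes was tested.

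Nearly the same members were lower with CBD against either control column. Of 50 members, 48 had a CBD value below both control columns, and all 31 that fell were among them. Against the 4-OHT table's control column tested members had a median log2 fold of −1.26. The gap between the control columns was larger than the CBD fold in 4 members: Gmnn, Gins4, Fen1 and Ung, none of which passed the test. Centred on the median log2 fold of genes reaching 1 FPKM with or without CBD, which was 0.19, the members' median was −1.21.

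**Figure D4:**
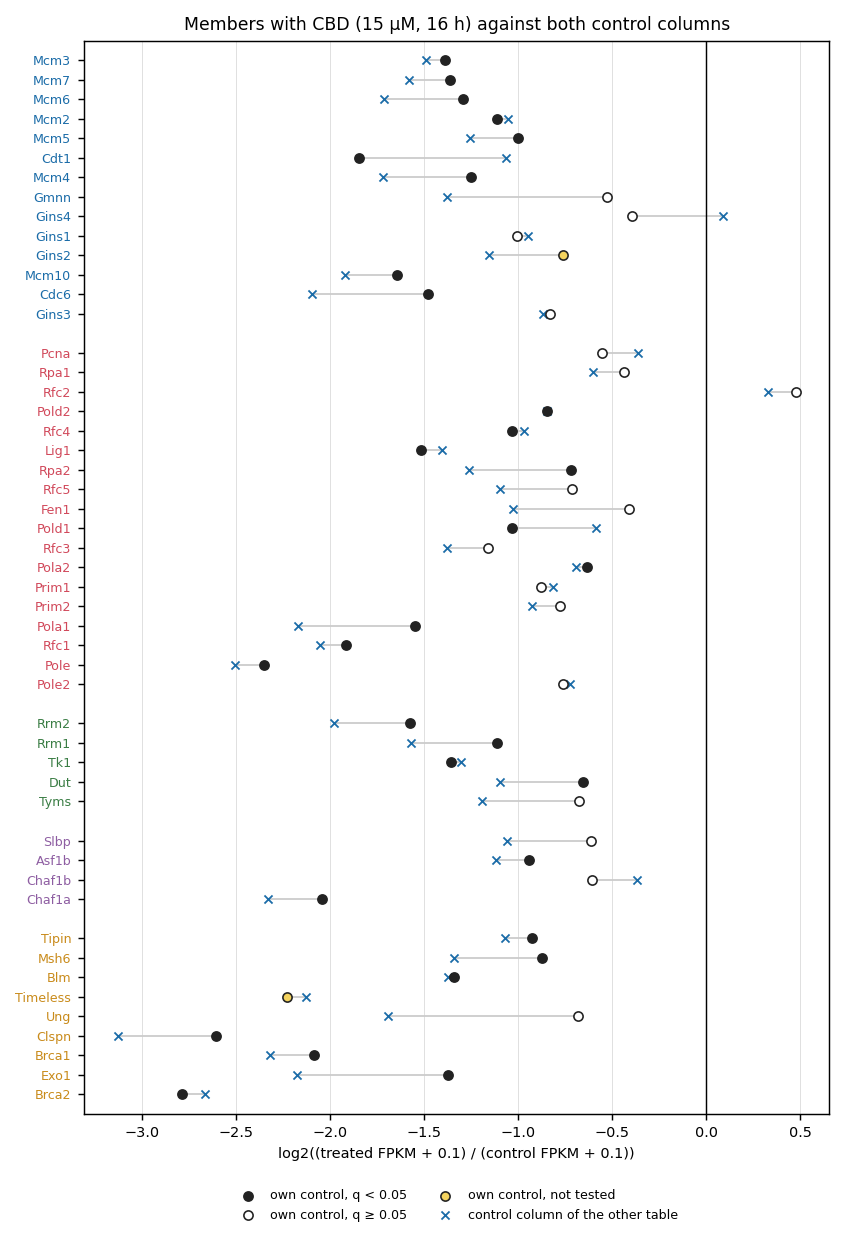
Log2 fold of each member with CBD (horizontal) against its own control (circles; filled where q is under 0.05, open where it is not, yellow where the authors' test failed) and against the control column of the 4-OHT table (crosses), in the same 5 blocks of roles. The crosses and circles lie on the same side of 0 except for Gins4, at −0.40 and 0.09.

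Other genes of the pathway, a list of 63 that includes the origin recognition complex, further fork proteins and repair partners, was lower with CBD as well. Of 62 tested with CBD, 29 fell (46.8%), against 7.74% of all tested genes and 14.9% of the well-expressed ones. None rose, against 18.4% of all tested genes. At an unadjusted p under 0.05, 38 were lower and 1 higher, and the median log2 fold was −1.02. The lowest folds were those of Ticrr (listed as 5730590G19Rik), which helps fire origins, from 10.6 to 1.20 FPKM, of the maintenance methyltransferase gene Dnmt1, from 124.8 to 20.1, of the clamp unloading gene Atad5, from 17.0 to 3.91, of topoisomerase II alpha (Top2a), from 161 to 39.6, and of the Fanconi anaemia gene Fancd2, from 11.0 to 2.99. The longest transcripts of these 5 genes span 5221 to 7272 bp, against a median of 3750 bp in the list. With the length trend removed, their log2 folds lay between −2.54 (Ticrr) and −1.52 (Fancd2), and the list's median was −0.97. The highest fold was that of Pold4, the smallest polymerase delta subunit, at 9.53 and 23.9 FPKM (q = 0.0570 in the authors' deposited table), with no call.

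The 4-OHT comparison asks what followed when Cre was switched on for 48 h. Replication genes stayed close to their control. Of 50 tested members 10 rose and 7 fell (14 and 8 at an unadjusted p under 0.05), so 34.0% were called, against 44.1% of all 11232 tested genes. By direction, the 10 rises stand against 27.2% of tested genes and the 7 falls against 16.9%. The members' median log2 fold was 0.04, beside 0.05 over all tested genes, and no member changed by 2-fold. The treated column held between 75.1% and 137% of the control level.

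The largest rise was that of Lig1, which stood at 62.0 FPKM in the control and 85.1 with 4-OHT, and at 67.1 in the CBD table's control (log2 fold 0.46, q = 1.18e-14 in the authors' deposited table). The 4-OHT value is above both controls. Tk1 rose from 91.8 to 113 FPKM (log2 fold 0.30, q = 3.30e-06 in the authors' deposited table) and Blm from 38.6 to 45.9. Smaller rises were called for Pole2, from 21.2 to 24.5 FPKM, Pcna, from 446 to 504, Asf1b, from 84.8 to 95.1, Prim1, from 36.5 to 40.6, Prim2, from 38.6 to 42.8, Gmnn, from 102.0 to 113, and Rrm2, from 172 to 189. Of these 10 genes 9 also exceed the CBD table's control column. Pcna, at 509 FPKM there, does not.

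The largest fall was that of Brca2, from 5.84 to 4.39 FPKM (log2 fold −0.40, q = 5.33e-12 in the authors' deposited table), with 6.35 in the CBD table's control. Brca2 has the longest transcript of the members, at 10724 bp. With the 4-OHT length trend removed, its log2 fold was −0.33. Ung fell from 38.0 to 31.6 FPKM, Pola1 from 49.5 to 43.3, Rfc5 from 84.5 to 74.4, Exo1 from 16.0 to 14.1, Pold2 from 93.68 to 83.4 and Rpa2 from 97.2 to 87.6. Only Brca2 and Pold2 also lie below the CBD table's control column. Against that column the log2 folds of Ung and Exo1 are 0.74 and 0.62.

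By role, the helicase genes Mcm2 to Mcm7 had no call with 4-OHT (0 fell and 1 was higher at an unadjusted p under 0.05 by the authors' Cuffdiff test), with log2 folds between −0.10 and 0.12. In the whole licensing group 1 of 14 was called, Gmnn. The polymerase group held 5 rises (27.8%) and 4 falls (22.2%) among 18 genes, beside 27.2% and 16.9% of all tested genes. Nucleotide supply held 2 rises and 0 falls among 5, chromatin assembly 1 rise and 0 falls among 4, and fork protection and repair 1 rise and 3 falls among 9. At an unadjusted p under 0.05, 0 genes of nucleotide supply and 0 of chromatin assembly were lower. The lowest folds in the groups without a fall were those of Cdc6, at 35.4 and 32.9 FPKM, of Tyms, at 39.4 and 37.4, and of Slbp, at 145 and 147, none with a call.

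These differences are small beside those between the control columns. The absolute log2 ratio of the control columns had a median of 0.23 over the 50 members, against a median absolute log2 fold of 0.10 with 4-OHT and 1.02 with CBD. In 39 of 50 members the controls differed by more than the 4-OHT fold. The 4-OHT table's control was the higher of the pair for 35 members, with a median log2 ratio of 0.17 (0.05 over the 6102 well-expressed genes, tested or not). Against the CBD table's control, the median member log2 fold with 4-OHT was 0.28.

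**Figure D5:**
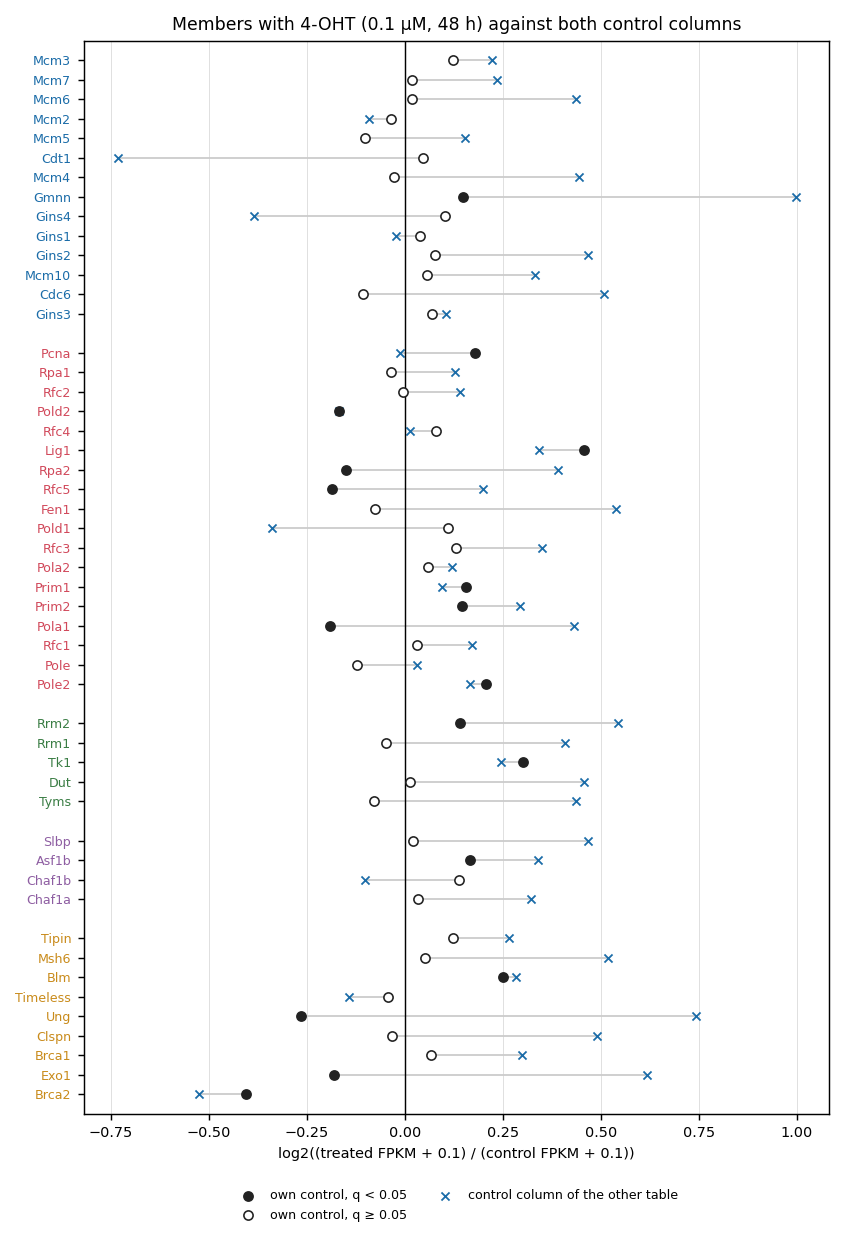
Log2 fold of each member with 4-OHT (horizontal) against its own control (circles; filled where q is under 0.05) and against the control column of the CBD table (crosses), in the same 5 blocks of roles. Circles lie between −0.40 and 0.46, while crosses reach −0.73 for Cdt1 and 0.997 for Gmnn.

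Side by side, 5 members fell with CBD and rose with 4-OHT against their own controls: Lig1, Rrm2, Tk1, Asf1b and Blm. Another 5 fell in both tables: Pola1, Pold2, Rpa2, Exo1 and Brca2. A further 21 fell with CBD and had no call with 4-OHT, among them the whole Mcm2 to Mcm7 helicase. Passing neither test were Gins1, Gins3, Gins4, Rfc2, Rfc3, Rpa1, Fen1, Tyms, Chaf1b and Slbp. Over all tested genes, 27.2% rose and 16.9% fell with 4-OHT. The same cross counts were not made over all tested genes, so these counts are not shown to be particular to the members. The difference between the treatments was not tested, and dose and time differ between them.

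Of the 62 other pathway genes tested with 4-OHT, 24 rose (38.7%, against 27.2% of all tested genes) and 9 fell (14.5%, against 16.9%), with a median log2 fold of 0.05. Pold4 rose from 5.05 to 7.29 FPKM, the checkpoint adaptor gene Topbp1 from 55.4 to 68.7, the Brca1-associated helicase gene Brip1 from 5.10 to 6.08, and Palb2, the link between Brca1 and Brca2, from 6.08 to 7.16. The lowest folds were those of the origin recognition genes Orc2, from 119.9 to 94.4 FPKM, and Orc1, from 20.5 to 17.7, of the accessory polymerase epsilon gene Pole3, from 103 to 88.9, of the histone chaperone gene Asf1a, from 16.5 to 14.2, and of the deoxycytidine kinase gene Dck, from 41.3 to 35.9. Of the 24 rises 17 exceed the CBD table's control column as well, and of the 9 falls 2 lie below it. Pold4 and Brip1 do not exceed that column, which holds 9.53 and 6.90 FPKM of them, while Topbp1 and Palb2 do. Among the falls named here, only Asf1a lies below it, with 17.0 FPKM there.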

How the data were processed

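Total RNA from 6 mouse leukemia samples was sequenced. Per the submitters' processing notes, reads were aligned to mm9 with Bowtie 0.12.2 and groups were compared with Cuffdiff (version and annotation not given in the sources used here). The authors deposited 2 tables with FPKM values, 1 per group, and the p-value and q-value of their test. Depth is unknown, and no interval was computed. Genes with status OK count as tested.

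From these, log2 folds with 0.1 FPKM added, counts and medians were computed with Python 3.11.15, pandas 2.3.3 and scipy 1.17.1. No new test was run. Transcript lengths are the longest in GENCODE vM21, found for 98.3% of entries, and give lengths alone. The length adjustment was checked only on simulated folds with a straight trend and correct lengths, so use of a wrong length was not checked. Promoters are RefSeq's on GRCm38.p6. Locus starts have 1 added. The members, roles, lists, words and rules were chosen with earlier results of these data known. Named were, per role and table, the highest and lowest folds, members that passed neither test, and the 5 called pathway genes at each end; some items that these rules or the marker lists name are not reported here. Alternatives were a q of 0.01, a minimum of 1 FPKM in both controls, a 2-fold minimum, pseudocounts of 1 and 0.01, the other control column, centring and the length adjustment.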

Additional observations from a re-analysis of the deposited data

How the results depend on the processing

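No paired analysis was possible because the tables give 1 value per group, and no replicate could be left out. With CBD, the 31 falls became 26 at a q under 0.01, 23 with a 2-fold minimum, and stayed 31 with a minimum of 1 FPKM in both controls and when the value also had to lie below the other control. The other alternatives change folds and not the authors' calls, so no count was made under them. The members' median of −1.02 was −1.001 with a pseudocount of 1, −1.26 against the other control column, −1.21 centred and −1.06 with the length trend removed. With 4-OHT, the 10 rises became 4 at a q under 0.01, and 0 with a 2-fold minimum. The 7 falls became 2 when the value also had to lie below the other control, and 0 with a 2-fold minimum. The median of 0.037 was 0.28 against the other control column, −0.0069 centred and 0.022 with the length trend removed.

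Among the other pathway genes with 4-OHT, 24 rises became 14 at a q under 0.01 and 0 with a 2-fold minimum. Their 9 falls became 4, 0, and 2 with the other control as a further limit. Against the other control column, 6 members called with 4-OHT changed sign: the log2 folds were 0.43 for Pola1, −0.013 for Pcna, 0.20 for Rfc5, 0.39 for Rpa2, 0.74 for Ung and 0.62 for Exo1. No called member changed sign with CBD under the alternatives run. The cause of these shifts was not tested.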
